A study of Mus musculus with 2 samples.

Results

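The 10 genes described here encode mechanosensing ion channels and parts of the YAP pathway, and were followed across the cell types of the mouse periosteum. They were taken by symbol from a list of names: the channels Piezo1, Piezo2 and Trpv4, the coactivators Yap1 and Wwtr1 (TAZ) with their DNA-binding partner Tead1, and the target genes Ccn1 (also Cyr61), Ccn2 (also Ctgf), Ankrd1 and Amotl2. All 10 are among the 31253 genes of the files. The cells came from the periosteum, the sheet of tissue on the outer face of bone, of femurs and tibias of 8-week-old mice, and were sorted for the Ai9 reporter. Control mice carried Prx1 Cre and Ai9/+. The other group carried Prx1 Cre, Ai9/+ and Piezo1 fl/fl, so that Cre could act on Piezo1 in cells that had ever used the Prrx1 (Prx1) promoter, which limb mesenchyme uses. Cre and the reporter were thus common to both groups. There was 1 single-cell library per genotype, the number of mice behind each was not stated, and the sorted cells were thawed before capture.

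Piezo channels open when the membrane is stretched and let cations in, and Trpv4 is a cation channel that answers to osmotic swelling, warmth and strain. YAP and TAZ enter the nucleus of cells on stiff or stretched support, bind TEAD factors and switch on genes such as Ccn1, Ccn2, Ankrd1 and Amotl2, while the kinases of the Hippo pathway hold them in the cytoplasm. In bone, Piezo1 in osteoblast-lineage cells is known as a sensor of load, Piezo2 is best known from touch and stretch sensing neurons, and Trpv4 from cartilage.

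Levels are unique molecular identifiers (UMIs, which count captured mRNA molecules once) summed over the cells of a type, per 1000000 UMIs of that type (CPM). Levels are compared for a gene across types or libraries, not between genes. With 1 library per genotype there was no replicate and no test, so each value carries an exact 95% interval that covers counting error only and not the spread between mice or preparations. The control library had 28030299 UMIs in 6118 barcodes and the Piezo1 fl/fl library 32337308 UMIs in 7469, of which 4418 and 5084 were kept, and 50 barcodes occurred in both. Clusters were named by marker genes, SSPC standing for skeletal stem and progenitor cell. In both libraries these were SSPC-1-like cells (809 control and 876 Piezo1 fl/fl cells, led in the control by Egfl6 and Col8a1), SSPC-2-like cells (749 and 555, led by Tnn and Postn or Mmp13), tendon-like cells (210 and 401), fibroblast-like cells (1621 and 2074), lining-like cells with Prg4 (55 and 124), pericyte-like cells (296 and 363), endothelial-like cells (172 and 141) and blood-like cells (415 and 523). Mature osteoblast-like (59) and perineurial-like (32) cells formed clusters in the control alone, and 27 chondrocyte-like cells in the Piezo1 fl/fl library alone. Prrx1 was at 1806 CPM in SSPC-1-like cells of the control, and at 53.1 and 77.4 CPM in its endothelial-like and blood-like cells, which thus passed the sort with little Prrx1. All types other than these last 2 are called stromal.

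The matching types were not the same in every marker. In SSPC-1-like cells the tendon factor Scx stood at 53.8 CPM in control and 298 CPM in Piezo1 fl/fl cells, while the 5 tendon markers together had 6170 and 7036 CPM and 4 of the 5 were found in at least 10% of cells in each. The 7 SSPC-2 markers of SSPC-1-like cells summed to 1893 and 370 CPM. No SSPC-1 marker was among the 10 leading genes of the Piezo1 fl/fl cluster. The 8 SSPC-1 markers summed to 13749 and 13618 CPM in SSPC-1-like cells, below the 26066 and 23220 CPM of tendon-like cells. Angptl7, the marker of SSPC-1 in the paper, was among the 10 leading genes of both tendon-like clusters and of neither SSPC-1-like cluster. The name SSPC-1-like thus rests on the markers used here and need not match the SSPC-1 of the paper. In SSPC-2-like cells the 6 mature osteoblast markers summed to 4265 CPM in control and 12131 CPM in Piezo1 fl/fl cells, where osteoblast genes had no cluster of their own. The 7 SSPC-2 markers of SSPC-2-like cells summed to 22529 and 16819 CPM, and the 8 SSPC-1 markers to 1953 and 3387 CPM. In tendon-like cells the 5 tendon markers summed to 23142 and 14503 CPM and the 7 fibroblast markers to 1310 and 3644 CPM, with Kera at 2500 and 889 CPM and Scx at 157 and 881 CPM. In lining-like cells the 4 lining markers summed to 144925 and 47178 CPM. In fibroblast-like cells the 5 chondrocyte markers summed to 1269 and 78.8 CPM, and the 7 fibroblast markers to 10143 and 10675 CPM. A control cluster of 850 of these cells had a mean log2 fold over all other cells of 2.50 for chondrocyte markers. For the 12 markers used to name fibroblasts it had 0.95. A Piezo1 fl/fl cluster of 367 fibroblast-like cells had -0.53 for these 12 markers. The 27 chondrocyte-like cells held 11764 CPM of the 5 chondrocyte markers and 42531 CPM of the 6 mature osteoblast markers, of which 5 were found in at least 10% of these cells. The part of these differences in the ratios given here was not tested.

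Piezo1, the gene carrying the floxed allele, was scarce in stromal cells of both libraries. The control held 99 Piezo1 UMIs among 3831 stromal cells, or 4.31 CPM (3.50 to 5.25), and the Piezo1 fl/fl library 47 among 4420 cells, or 1.86 CPM (1.36 to 2.47). The stromal level was thus 0.431 times the control, a log2 ratio of -1.22 (-1.75 to -0.70). When every cell was reduced to 2500 UMIs, Piezo1 was found in 0.658% of 3498 control cells (0.417 to 0.985) and 0.454% of 3969 Piezo1 fl/fl cells (0.269 to 0.716), and the log2 ratio was -0.54, on 23 and 18 cells with a UMI. Without thinning these shares were 2.43% and 0.995%, at median depths of 5045 and 4774 UMIs. Blood-like control cells had 1.88% thinned and 3.37% unthinned.

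The lower Piezo1 level was seen in stromal types and, when pooled, also in cells with little Prrx1. In SSPC-2-like cells Piezo1 had 33 control and 5 Piezo1 fl/fl UMIs, at 6.19 and 1.47 CPM, and this log2 ratio of -2.08 (-3.79 to -0.71) was larger than its counting error. At 2500 UMIs a cell the share of these cells with Piezo1 was 0.975% (0.393 to 2.00) in control and 0.588% (0.121 to 1.71) in Piezo1 fl/fl cells, on 7 and 3 cells, and these intervals overlapped. SSPC-1-like cells had 13 and 4 UMIs and tendon-like cells 7 and 3, with intervals that reached past 0. Endothelial-like and blood-like cells, pooled, had 33 and 22 UMIs, at 13.1 and 6.74 CPM, a log2 ratio of -0.95 (-1.80 to -0.13). Taken singly, endothelial-like (-0.69, -1.97 to 0.50) and blood-like cells (-0.83, -2.06 to 0.36) had intervals that held 0. The pool was 640707 endothelial-like and 1886619 blood-like UMIs in the control, and 574123 and 2691316 in the Piezo1 fl/fl library. The part of this mix in the pooled ratio was not tested. The point values were lower in the Piezo1 fl/fl library in all 8 types that both libraries held.

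These counts do not check the deletion. The UMIs mark the end of the transcript that carries the poly(A) tail, and which exons the floxed allele loses is not given in the sources used here. In the GENCODE vM21 annotation of GRCm38, Piezo1 lies on the minus strand of chr8:122481698-122551329, and the last 2441 bases of its span overlap Ctu2, a tRNA thiolation gene of the plus strand. The strand setting of the counting is not given in the sources used here, so reads of both genes could be mixed. Ctu2 had 2.05 CPM in control and 1.94 CPM in Piezo1 fl/fl stromal cells, a log2 ratio of -0.08 (-0.69 to 0.53). A second overlapping gene of the files had 0 UMIs in both.

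Across the control types, Piezo1 was highest in endothelial-like cells, with 18 UMIs in 172 cells and 28.1 CPM (16.7 to 44.4). This was 6.52 times the stromal level (3.71 to 10.8) and 3.53 times the blood-like level (1.68 to 7.53). In the Piezo1 fl/fl library the endothelial-like level was 17.4 CPM (8.35 to 32.0), 9.38 times the stromal one (4.23 to 18.8). Below the endothelial-like cells came lining-like (12.6), blood-like (7.95), mature osteoblast-like (7.39), SSPC-2-like (6.19), tendon-like (5.66), fibroblast-like (3.70), SSPC-1-like (2.75) and pericyte-like cells (1.53 CPM), and no neighbours in this order differed beyond counting error. Over the wider step from SSPC-2-like to SSPC-1-like cells the level was lower, by a log2 difference of -1.17 (-2.22 to -0.20). The 32 perineurial-like cells had 0 UMIs, which allows up to 18.2 CPM.

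Piezo2, the other Piezo channel, had the reverse distribution among the progenitor-like types. The control had 561 Piezo2 UMIs in SSPC-1-like cells, at 119 CPM (109 to 129), and 15 in SSPC-2-like cells, at 2.81 CPM (1.57 to 4.64), a 42.3-fold difference (25.4 to 76.0). Perineurial-like (109 CPM) and tendon-like cells (102 CPM) did not differ from SSPC-1-like cells beyond counting error. Endothelial-like (43.7) and fibroblast-like cells (37.2 CPM) followed. Pericyte-like (5.37), lining-like (4.20) and blood-like cells (3.71 CPM) were at the level of SSPC-2-like cells within counting error, and the 59 mature osteoblast-like cells had 0 UMIs, which allows up to 5.54 CPM.

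Piezo2 was found in a minority of SSPC-1-like cells. At 2500 UMIs a cell, 20.5% of SSPC-1-like control cells had a Piezo2 UMI (17.6 to 23.6), against 0.975% of SSPC-2-like cells (0.393 to 2.00) and 0.938% of blood-like cells (0.194 to 2.72). Without thinning these shares were 33.7%, 1.74% and 1.20%, at median depths of 5218, 5978 and 3767 UMIs. With the blood-like share as background, SSPC-2-like cells did not exceed it and SSPC-1-like cells did. The 10% of SSPC-1-like cells with the most Piezo2 carried 60.6% of its UMIs.

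Unlike Piezo1 in the stroma, Piezo2 was higher in the Piezo1 fl/fl library in SSPC-1-like and tendon-like cells. Piezo2 in SSPC-1-like cells was at 200 CPM (186 to 214) in the Piezo1 fl/fl library, on 803 UMIs, which is 1.68 times the control level (1.51 to 1.87). The share of these cells with Piezo2 at equal depth was 35.0% (31.6 to 38.6), above the 20.5% of the control. Tendon-like cells went from 102 to 145 CPM, a log2 ratio of 0.51 (0.20 to 0.82), which was 0.039 to 0.76 under the other settings. Fibroblast-like cells went from 37.2 to 51.6 CPM, a log2 ratio of 0.47 (0.28 to 0.66), which turned to -0.053 with each cell placed by its own markers. In endothelial-like cells the difference ran the other way, from 43.7 to 20.9 CPM on 28 and 12 UMIs, a log2 ratio of -1.06 (-2.17 to -0.04). This ratio was -1.52 to -0.26 under the other settings. The 7 pericyte markers of endothelial-like cells summed to 1851 CPM in control and 5420 CPM in Piezo1 fl/fl cells, and their part in it was not tested. Blood-like cells had 3.71 and 5.57 CPM, within counting error. In SSPC-2-like cells the level was 11.7 CPM on 40 UMIs, a log2 ratio of 2.06 (1.17 to 3.02), but this direction depended on how cells were assigned: it was -0.10 with the libraries clustered together, -0.07 with each cell placed by its own markers and -0.43 with cells under 10% mitochondrial UMIs. In SSPC-1-like cells the ratio lay between 0.61 and 1.01 under the 12 settings that could give it.

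**Figure D1:**
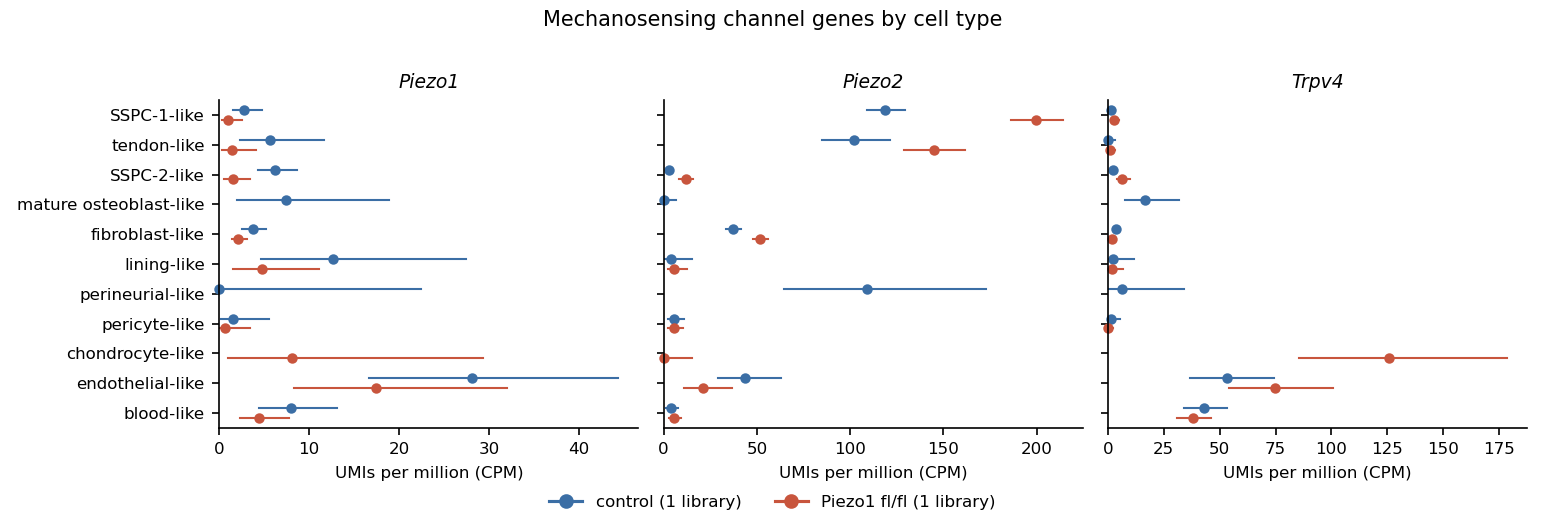
Levels of Piezo1, Piezo2 and Trpv4 in CPM (linear axes from 0) for each cell type, with the control in blue and the Piezo1 fl/fl library in red. Points are 1 library each and bars are exact 95% counting intervals. Piezo2 reaches 119 CPM in control SSPC-1-like cells and 200 CPM in the Piezo1 fl/fl library, while the Piezo1 points stay under 30 CPM throughout and Trpv4 is highest in endothelial-like, blood-like and chondrocyte-like cells.

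Trpv4 was highest outside the stroma in the control. In the control it was at 53.1 CPM (36.8 to 74.2) in endothelial-like and 42.9 CPM (34.1 to 53.4) in blood-like cells, which did not differ from each other beyond counting error, and at 2.83 CPM (2.18 to 3.61) in stromal cells. The endothelial-like level was 18.7 times the stromal one (12.0 to 28.8) and the blood-like level 15.2 times (10.8 to 21.4). Among stromal types, mature osteoblast-like cells had the most, at 16.6 CPM on 9 UMIs (7.61 to 31.6), and the 210 tendon-like cells had 0 UMIs, which allows up to 2.43 CPM. At equal depth 11.9% of endothelial-like and 7.50% of blood-like cells had a Trpv4 UMI, against 0.543% of stromal cells, and 14.5%, 14.0% and 1.36% had one without thinning, at median depths of 3022, 3767 and 5045 UMIs.

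The Piezo1 fl/fl library had the same order, with 74.9 CPM in endothelial-like, 37.9 in blood-like and 3.60 in stromal cells. Its blood-like cells were 3 clusters. Those led by the macrophage genes Lyve1, Cbr2 and Pf4 had 64.9 CPM, those led by Igkc and hemoglobin genes 18.5 CPM, and the neutrophil granule gene cluster (Ngp, S100a8) had 0 UMIs in 88 cells. The 27 chondrocyte-like cells, led by Col2a1 and also carrying osteoblast markers, had 31 Trpv4 UMIs and 126 CPM (85.5 to 179), the highest Trpv4 level of any type in either library. Within types, Trpv4 did not differ between libraries beyond counting error in endothelial-like (log2 ratio 0.50, -0.19 to 1.19) or blood-like cells (-0.18, -0.61 to 0.26). It was at 3.48 and 1.80 CPM in fibroblast-like cells, on 32 and 23 UMIs (log2 ratio -0.95, -1.79 to -0.14). Of these 32 control UMIs, 28 were in a cluster of 850 cells led by the cartilage genes Cytl1 and Col2a1, at 5.66 CPM, and 4 in the other fibroblast-like cluster; the part of this cluster in the difference was not tested. Trpv4 was at 2.44 and 6.45 CPM in SSPC-2-like cells, on 13 and 22 UMIs (log2 ratio 1.40, 0.35 to 2.52). This ratio was 0.40 to 2.40 under the other settings. At equal depth 0.557% (0.152 to 1.42) and 1.57% (0.680 to 3.07) of these cells had Trpv4, on 4 and 8 cells, and these intervals overlapped. A further 9 control UMIs were in mature osteoblast-like cells, which had no cluster of their own in the Piezo1 fl/fl library. Their part in this ratio was not tested.

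Yap1 and Wwtr1 encode the paired coactivators YAP and TAZ, and their transcripts were spread over the sorted cells in different ways. Yap1 varied less: in the control it lay between 86.9 CPM in mature osteoblast-like and 169 CPM in pericyte-like cells, and no neighbouring types in the order of the 9 types other than blood-like differed beyond counting error. Over wider steps, pericyte-like cells had 1.59 times (1.36 to 1.84) and SSPC-1-like cells 1.46 times (1.33 to 1.61) the fibroblast-like level. Outside the blood-like cells, Wwtr1 ranged from 116 CPM (87.1 to 150) in lining-like cells to 735 CPM (670 to 805) in endothelial-like and 698 CPM (576 to 838) in perineurial-like cells. SSPC-1-like cells, at 456 CPM, had 2.04 times the Wwtr1 of SSPC-2-like cells, at 224 CPM (1.90 to 2.19), whereas for Yap1 this ratio was 1.22 (1.10 to 1.36). Tendon-like cells, with 517 CPM, were 1.13 times the SSPC-1-like level (1.04 to 1.24).

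Tead1, one of the TEAD factors through which YAP and TAZ reach DNA, was highest in perineurial-like cells at 340 CPM (257 to 441) and in pericyte-like cells at 229 CPM (203 to 256). Pericyte-like cells thus had 2.20 times the fibroblast-like level (1.93 to 2.51). Fibroblast-like (104), SSPC-1-like (114), SSPC-2-like (121) and endothelial-like cells (103 CPM) lay close together, and mature osteoblast-like cells had 42.5 CPM (26.9 to 63.8). Blood-like cells gave the background for all 3 genes, with 13.8 CPM of Yap1, 36.6 of Wwtr1 and 9.54 of Tead1. At equal depth 2.81%, 5.00% and 1.56% of blood-like cells had a UMI of these genes, against 26.4%, 47.0% and 23.7% of stromal cells, and without thinning 4.58% against 46.9% for Yap1, 7.95% against 68.7% for Wwtr1 and, for Tead1, 11 of 415 against 1532 of 3831 cells.

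**Figure D2:**
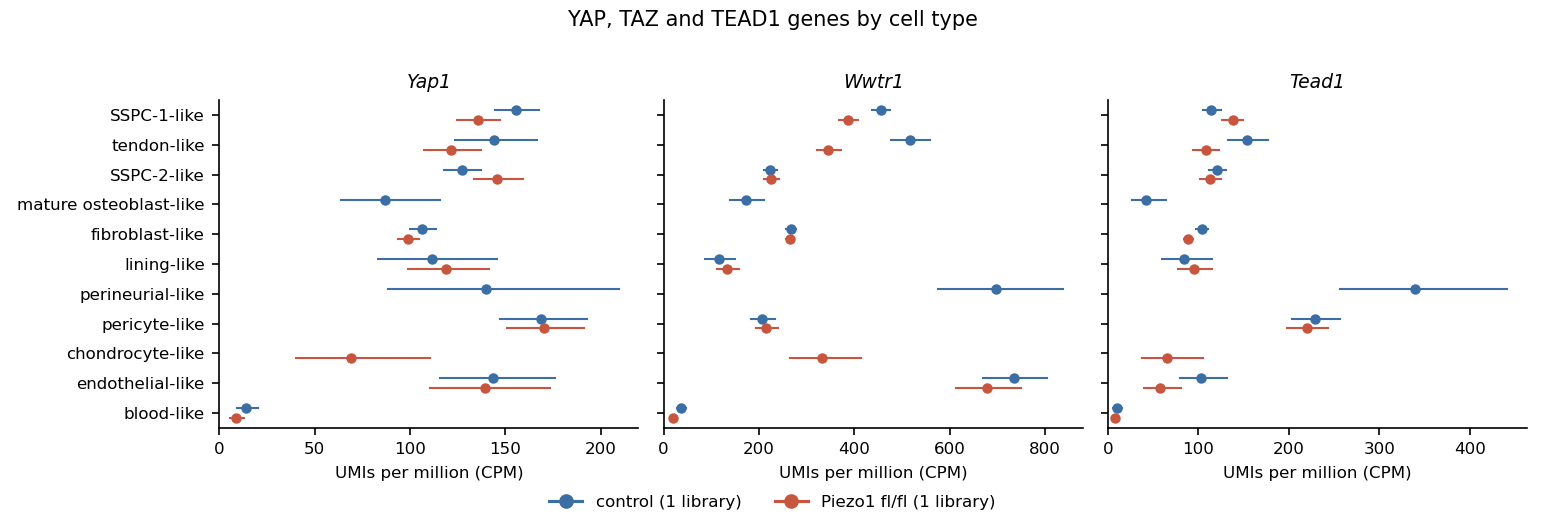
Levels of Yap1, Wwtr1 and Tead1 in CPM (linear axes from 0) by cell type, control in blue and Piezo1 fl/fl in red. Points are 1 library each with exact 95% counting intervals. Blood-like cells sit near 0 for all 3 genes, Wwtr1 peaks in endothelial-like cells at 735 and 679 CPM, and the libraries lie close together in most types.

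Between the libraries these 3 genes stayed within 1.5-fold in every stromal type that both held. Yap1 in SSPC-1-like cells was at 156 and 135 CPM, a log2 ratio of -0.20 (-0.36 to -0.04), and in SSPC-2-like cells at 127 and 146 CPM, a log2 ratio of 0.20 (0.03 to 0.37). Wwtr1 was at 456 and 388 CPM in SSPC-1-like cells (log2 ratio -0.23, -0.33 to -0.14) and at 224 and 225 CPM in SSPC-2-like cells (0.01, -0.12 to 0.14). The farthest Wwtr1 ratio among stromal types was in tendon-like cells, at 517 and 346 CPM (-0.58, -0.74 to -0.43). Tead1 was at 114 and 138 CPM in SSPC-1-like cells (0.27, 0.09 to 0.44), at 154 and 108 CPM in tendon-like cells (-0.51, -0.79 to -0.23) and at 103 and 57.5 CPM in endothelial-like cells (-0.84, -1.49 to -0.22), the last on 66 and 33 UMIs.

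The 4 target genes are read here beside the short motif that TEAD factors bind. RefSeq promoters (GRCm38.p6, 250 bases before to 50 bases after the transcript start) were given for 7 of the 10 members, namely Piezo1, Trpv4, Yap1, Wwtr1, Ccn1, Ankrd1 and Amotl2. The letters GGAATG, searched on both strands (CATTCC on the other), were in 5 of the 7, all but Piezo1 and Trpv4. They were held by 14.7% of all 32851 promoters given and 16.6% of all 27025 genes. The windows of 60 bases around the motif are shown for the 3 target genes with an entry, because their levels are compared across types here; they are written in the direction of the gene, with the motif in capitals.
Ccn1, chr3:145650056-145650115, minus strand: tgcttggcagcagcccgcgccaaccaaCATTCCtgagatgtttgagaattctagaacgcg
Ankrd1, first site, chr19:36120022-36120081, minus strand: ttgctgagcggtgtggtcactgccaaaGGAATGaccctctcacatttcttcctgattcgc
Ankrd1, second site, chr19:36119935-36119994, minus strand: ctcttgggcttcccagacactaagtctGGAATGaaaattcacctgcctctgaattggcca
Amotl2, chr9:102717712-102717771, plus strand: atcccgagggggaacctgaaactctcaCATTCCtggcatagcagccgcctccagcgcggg
The first base of the motif lay 103 bases before the start of Ccn1, 210 and 123 bases before that of Ankrd1 and 65 bases before that of Amotl2. A match of these letters is a description of the sequence and not a measured binding site. The coactivator gene Wwtr1 held the letters 136 bases before the first of its 2 listed starts, and Yap1 held them 141 bases before its start.

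Ccn2, a secreted matricellular protein, split the stromal types into a high and a low set. In the control it was at 4939 CPM (4741 to 5143) in lining-like cells, 4675 CPM (4613 to 4737) in those called SSPC-1-like and 3638 CPM (3532 to 3746) in tendon-like ones. All others were at 600 CPM or less: SSPC-2-like 600, fibroblast-like 551, pericyte-like 405, perineurial-like 382, endothelial-like 228, blood-like 146 and mature osteoblast-like 128 CPM. SSPC-1-like cells had 7.79 times the Ccn2 of SSPC-2-like cells (7.51 to 8.09) and 8.49 times that of fibroblast-like cells (8.24 to 8.76). The 27 chondrocyte-like cells of the Piezo1 fl/fl library had 7690 CPM (7347 to 8044), the highest level of Ccn2 found, beside the osteoblast markers given above.

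Cells within a type differed widely in Ccn2. At 2500 UMIs a cell, the control SSPC-1-like cells had a median of 7 Ccn2 UMIs, with quartiles of 2 and 16, and 10.8% had none. In the Piezo1 fl/fl library the median was 11 with quartiles of 5 and 21, and 5.39% had none. SSPC-2-like cells had a median of 0 in the control, where 51.7% had none and 1.53% had 10 or more, and a median of 1 in the Piezo1 fl/fl library, where 36.3% had none and 11.4% had 10 or more. Tendon-like cells had medians of 7 and 6. Of the blood-like control cells, 13.4% had a Ccn2 UMI at this depth and 19.0% without thinning.

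**Figure D3:**
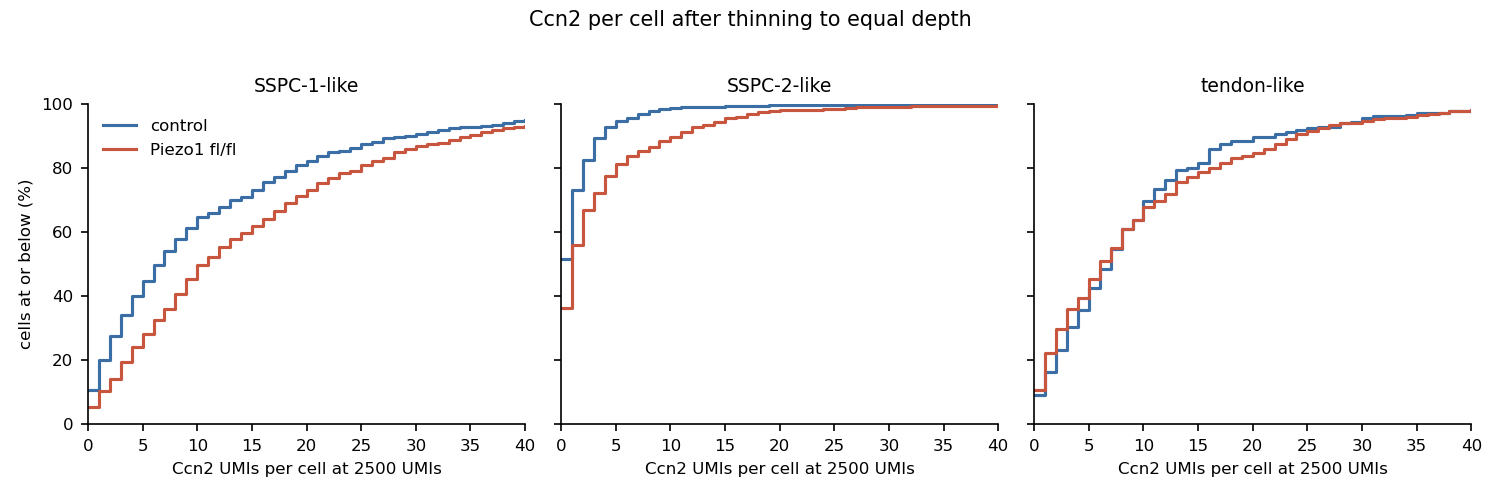
Share of cells (in percent, vertical axis) with at most the given number of Ccn2 UMIs (horizontal axis, cut at 40) after each cell was reduced to 2500 UMIs, for SSPC-1-like, SSPC-2-like and tendon-like cells of the control (blue) and the Piezo1 fl/fl library (red). The red curves lie to the right of the blue in both SSPC-like types, with medians of 11 against 7 and 1 against 0, and the curves cross in tendon-like cells.

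Summed over each type, Ccn2 was higher in the Piezo1 fl/fl library in the progenitor-like and fibroblast-like cells. In SSPC-2-like cells it was at 600 and 1313 CPM, a log2 ratio of 1.13 (1.07 to 1.20), and this ratio was 0.48 to 1.51 under the other settings. In SSPC-1-like cells it was at 4675 and 6265 CPM (0.42, 0.40 to 0.45), a difference that turned to -0.10 when each cell was placed by its own marker UMIs. Fibroblast-like cells were at 551 and 758 CPM (0.46, 0.41 to 0.51) and tendon-like cells at 3638 and 3872 CPM (0.09, 0.04 to 0.14), the latter turning to -0.26 at a finer clustering resolution. Lining-like cells had 4939 and 4066 CPM (-0.28, -0.35 to -0.21), a ratio of 0.022 with cells placed by their own markers, and pericyte-like cells 405 and 279 CPM (-0.54, -0.72 to -0.36), the latter turning to 1.05 with cells under 10% mitochondrial UMIs. Endothelial-like and blood-like levels did not differ beyond counting error, with log2 ratios of -0.02 (-0.37 to 0.33) and -0.02 (-0.25 to 0.21).

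Ccn1, the related matricellular gene, shared only part of this distribution. It was highest in tendon-like (1685 CPM, 1613 to 1759) and SSPC-1-like control cells (1559 CPM, 1523 to 1595), followed by pericyte-like (839), SSPC-2-like (723) and fibroblast-like cells (484 CPM). Lining-like cells, the highest for Ccn2, had 309 CPM of Ccn1 (261 to 363), which was 0.198 times the SSPC-1-like level. The library ratio was small in SSPC-1-like (0.18, 0.13 to 0.22) and SSPC-2-like cells (0.22, 0.15 to 0.29), and the latter turned to -0.094 with the libraries clustered together. It was lower in the Piezo1 fl/fl library in pericyte-like cells, at 839 and 379 CPM, or 0.451 times the control (0.408 to 0.498), and in lining-like cells, at 309 and 190 CPM (-0.70, -1.02 to -0.39), where the lining markers were lower too. The pericyte-like log2 ratio of -1.15 was -1.16 to -0.41 under the other settings. The 5 muscle markers of pericyte-like cells summed to 1252 CPM in control and 287 CPM in Piezo1 fl/fl cells. Their part in this ratio was not tested. The Ccn1 difference in tendon-like cells, 1685 and 1339 CPM, turned sign under 3 of the other settings.

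Amotl2, an angiomotin family protein that binds YAP at cell junctions and is also one of its targets, was highest in perineurial-like (558 CPM, 450 to 685) and tendon-like control cells (329 CPM, 298 to 363). SSPC-1-like (227), fibroblast-like (175), endothelial-like (147), SSPC-2-like (146) and pericyte-like cells (124 CPM) followed. In the Piezo1 fl/fl library it was lower in tendon-like cells, at 139 CPM (-1.25, -1.47 to -1.03), in pericyte-like cells, at 51.2 CPM (-1.27, -1.67 to -0.88), in lining-like cells, at 23.7 against 84.1 CPM (-1.83, -2.61 to -1.07), and in fibroblast-like cells, at 110 CPM (-0.67, -0.78 to -0.57). In these 4 types the direction held under all 13 settings that gave a value. The tendon markers of the tendon-like cells and the lining markers of the lining-like cells were also lower in this library, as given above. So were the muscle markers of pericyte-like and the chondrocyte markers of fibroblast-like cells. The part of these markers in these ratios was not tested. In SSPC-1-like cells the levels were 227 and 204 CPM (-0.16, -0.29 to -0.03), and in SSPC-2-like cells 146 and 133 CPM (-0.12, -0.29 to 0.04). Ccn2 and Amotl2 thus differed in direction between the libraries in fibroblast-like cells.

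Ankrd1, a stretch-responsive nuclear cofactor of muscle, was nearly absent from the stroma apart from tendon-like cells. Of 27 Ankrd1 UMIs in control stromal cells, 24 were in the 210 tendon-like cells, at 19.4 CPM (12.4 to 28.9). The 809 SSPC-1-like cells had 0 UMIs, which allows up to 0.636 CPM. In the Piezo1 fl/fl library 10 of 20 stromal UMIs were in tendon-like cells, at 4.65 CPM (2.23 to 8.55), a log2 ratio of -2.06 (-3.29 to -0.94), beside the lower tendon markers of these cells. Pericyte-like cells had 1 and 7 UMIs and endothelial-like cells 0 and 7, and 1.42% of the 141 endothelial-like cells held the last 7. The 24 control UMIs of tendon-like cells lay in 11 cells and the 10 Piezo1 fl/fl UMIs in 4. The interval of their ratio takes no account of UMIs gathered in few cells. At equal depth 3.78% (1.53 to 7.64) and 0.552% (0.067 to 1.98) of tendon-like cells had an Ankrd1 UMI, on 7 and 2 cells, and these intervals overlapped.

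**Figure D4:**
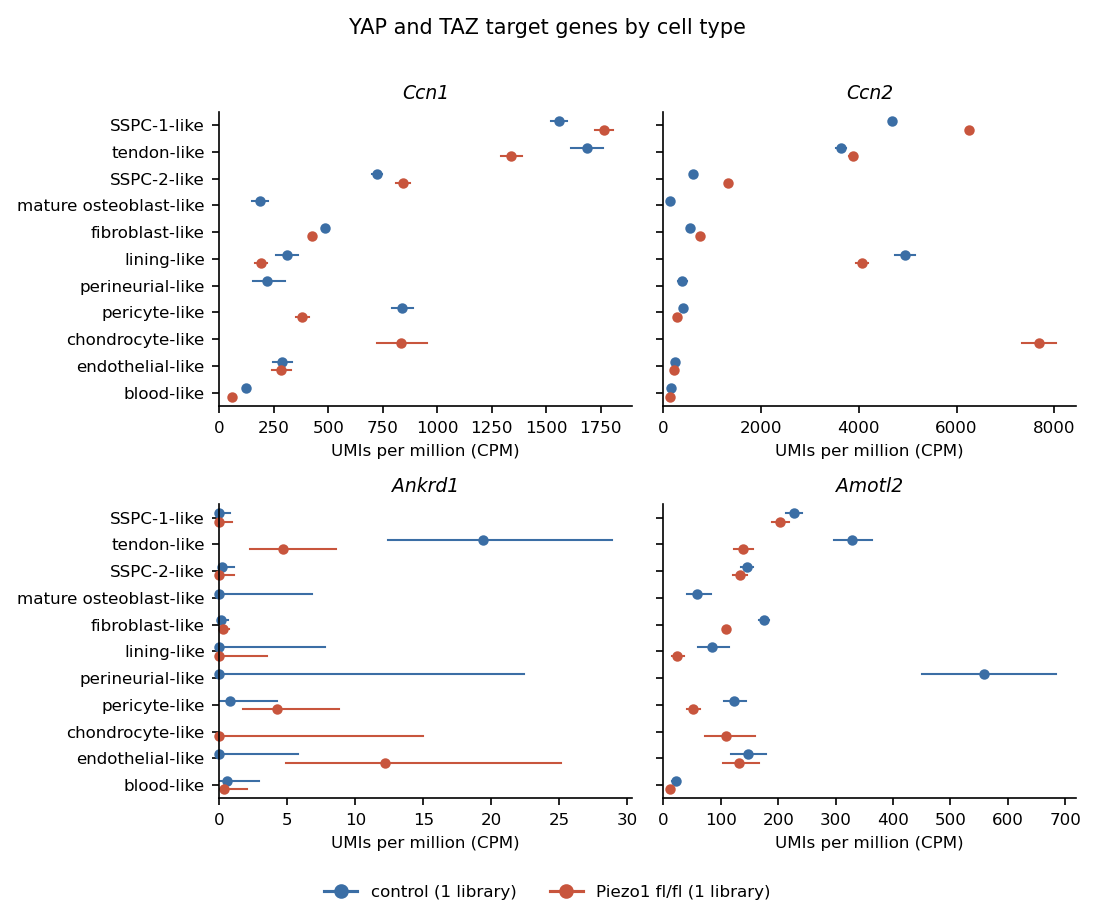
Levels of Ccn1, Ccn2, Ankrd1 and Amotl2 in CPM (linear axes from 0) by cell type, control in blue and Piezo1 fl/fl in red, with exact 95% counting intervals around 1 library each. Ccn2 is high in SSPC-1-like, tendon-like, lining-like and chondrocyte-like cells, Ankrd1 in tendon-like control cells at 19.4 CPM, and Amotl2 in perineurial-like cells at 558 CPM.

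Over all 10 members, a difference past 1.5-fold in either direction was counted among genes with at least 50 UMIs in both libraries together. In SSPC-1-like cells it was reached by 1 of 7 members (Piezo2), beside 14.4% of 9453 genes. In SSPC-2-like cells it was 2 of 7 (Piezo2 and Ccn2), beside 13.8% of 9052 genes. In tendon-like cells it was 1 of 7 (Amotl2), beside 19.9% of genes, in lining-like cells 2 of 6 (Ccn1 and Amotl2), beside 21.7%, and in endothelial-like cells 1 of 7 (Tead1), beside 16.0%. In fibroblast-like cells 3 of 9 members (Piezo1, Trpv4 and Amotl2) passed, beside 10.2% of genes, in pericyte-like cells 2 of 6 (Ccn1 and Amotl2), beside 8.63%, and in blood-like cells 3 of 5 (Wwtr1, Ccn1 and Amotl2), beside 15.8%. On 5 to 9 members a type, nothing particular to the members is read from these counts. The Wwtr1 ratio in blood-like cells turned to 0.020 with doublets kept. Blood-like cells were 1 control and 3 Piezo1 fl/fl clusters, and these 3 genes were low in them, at 36.6 and 19.7 CPM for Wwtr1, 124 and 59.8 CPM for Ccn1 and 21.2 and 11.9 CPM for Amotl2. In each type the members left out of these counts did not reach 50 UMIs. The median log2 ratio of the members tested ran from -0.83 in blood-like to 0.20 in SSPC-2-like cells, and that of all genes from -0.092 to 0.15.

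**Figure D5:**
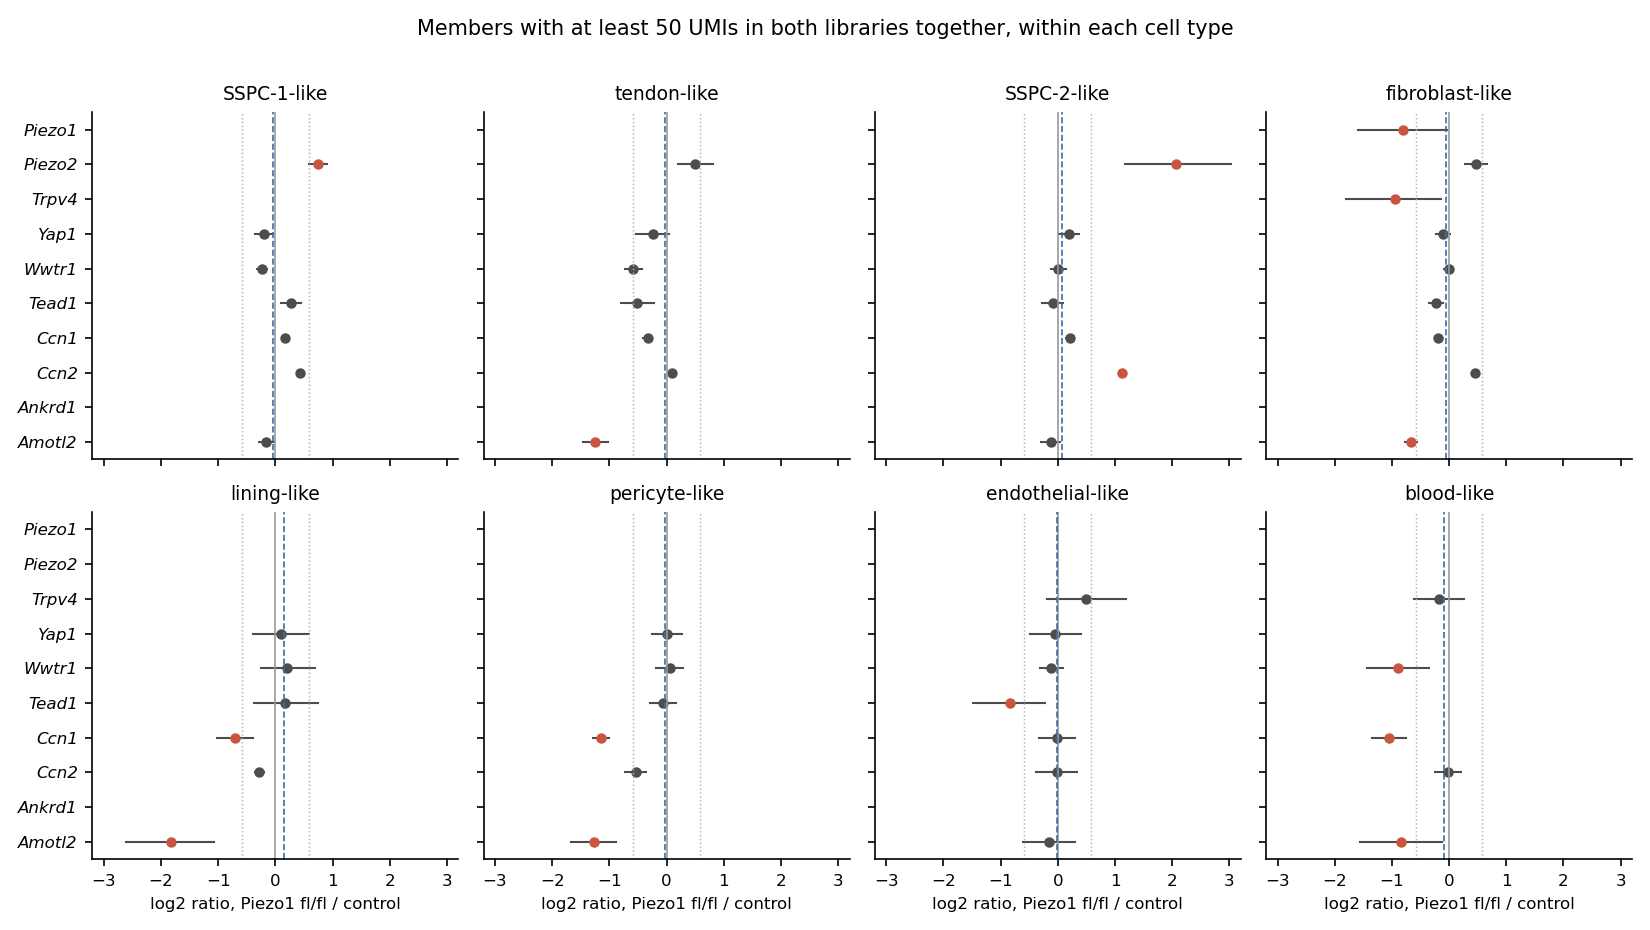
Log2 ratio of Piezo1 fl/fl over control (horizontal axis) for each member with at least 50 UMIs in both libraries together, in the 8 cell types that both libraries held. Bars are exact 95% counting intervals, red points are past 1.5-fold (dotted lines), and the dashed blue line is the median over all genes. Piezo2 lies right of 0 in both SSPC-like types, Ccn2 in SSPC-2-like cells, and Amotl2 left of 0 in tendon-like, fibroblast-like, lining-like, pericyte-like and blood-like cells.

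A further 4 lists were read in the progenitor-like types in the same way, and their counts come from 1 library a genotype. Of 14 other channel genes linked to stretch or volume sensing, 10 were tested in SSPC-1-like cells, with 0 higher and 1 lower in the Piezo1 fl/fl library (Trpm4, 7.20 and 3.98 CPM, with an interval of the log2 ratio from -1.81 to 0.04), beside 14.4% of all genes past 1.5-fold, and a median log2 ratio of -0.32 beside -0.046 over all genes. In SSPC-2-like cells 9 were tested, with 1 higher and 0 lower, beside 13.8% of all genes. This was Kcnk2, a potassium channel of the TREK kind, on 14 and 42 UMIs at 2.63 and 12.3 CPM (2.23, 1.33 to 3.22). Kcnk2 was lower in the Piezo1 fl/fl library in the other types where it was tested. It had 180 and 113 UMIs in SSPC-1-like cells (-0.44, -0.79 to -0.09) and 74 and 27 in tendon-like cells (-2.25, -2.95 to -1.60). Fibroblast-like cells had 76 and 44 UMIs of it (-1.27, -1.84 to -0.71). In the control Kcnk2 was at 38.1 CPM in SSPC-1-like and 59.9 CPM in tendon-like cells, so that SSPC-1-like cells stood above SSPC-2-like cells by a log2 difference of 3.86 (3.08 to 4.76), as they did for Piezo2.

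Of 20 Hippo genes, which restrain or partner YAP and TAZ, 18 were tested in each type. In SSPC-1-like cells 1 was higher (Vgll3, a TEAD cofactor, 24.6 and 43.3 CPM) and 2 lower (Amot, 70.8 and 40.3 CPM, and Sav1, the scaffold of the Hippo kinases, 11.4 and 6.46 CPM), beside 14.4% of all genes, with a median of -0.22 beside -0.046 over all genes. In SSPC-2-like cells 1 was higher (Tead2, 16.3 and 25.8 CPM) and 1 lower (Vgll3, 11.6 and 5.87 CPM), beside 13.8% of all genes, with a median of -0.061 beside 0.079 over all genes. In control perineurial-like cells Vgll3 reached 686 CPM. Tead4 was at 0 CPM in both SSPC-like types of the control, within limits of 0.636 and 0.563 CPM.

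Of 18 other YAP target genes, of which Ptpn14 and Lats2 are also in the Hippo list, 16 were tested in SSPC-1-like cells, with 2 higher (Axl, a receptor tyrosine kinase, 309 and 495 CPM, and Fjx1, 13.8 and 26.4 CPM) and 1 lower (F3, tissue factor, 32.0 and 17.9 CPM), beside 14.4% of all genes, and a median of -0.15 beside -0.046. In SSPC-2-like cells 15 were tested. Here 5 were higher (Axl, 45.6 and 120 CPM, F3, 57.6 and 113 CPM, Igfbp3, 9.94 and 22.0 CPM, Gadd45a, 39.0 and 71.0 CPM, and Nt5e, the surface enzyme CD73, 20.4 and 38.7 CPM) and 3 lower (Tgfb2, 574 and 265 CPM, Ccdc80, 1087 and 719 CPM, and Fjx1, 23.4 and 13.8 CPM), beside 13.8% of all genes, with a median of 0.094 beside 0.079 over all genes. The targets thus included members on both sides in the same cells. Fjx1 and F3 lay on opposite sides in the 2 progenitor-like types. In the control, the 3 lower targets had more in SSPC-2-like than in SSPC-1-like cells. These were Tgfb2 at 574 against 62.9 CPM, Ccdc80 at 1087 against 420 CPM, and Fjx1 at 23.4 against 13.8 CPM. Igfbp3 (9.94 against 350), Axl (45.6 against 309), Nt5e (20.4 against 96.4) and Gadd45a (39.0 against 54.7 CPM) were lower in SSPC-2-like cells. F3, also among the 5 higher targets, was not (57.6 against 32.0 CPM). The SSPC-1 markers of SSPC-2-like cells were higher and the SSPC-2 markers lower in the Piezo1 fl/fl library, as given above. Their part in the target ratios was not tested. The Igfbp3 ratio in SSPC-2-like cells turned to -1.53, -1.24 and -1.25 under the same 3 settings that turned that of Piezo2.

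The genes that tissue digestion is known to raise were counted beside the targets, because Ccn1 and Ccn2 are themselves immediate early genes. All 11 were tested. In SSPC-1-like cells 4 were higher in the Piezo1 fl/fl library and 0 lower (Ier2, 138 and 260 CPM, Hspa1b, 406 and 713 CPM, Junb, 702 and 1149 CPM, and Hspa1a, 174 and 283 CPM), and the list summed to 14075 and 17892 CPM with a median log2 ratio of 0.35, beside 14.4% of all genes past this fold and their median of -0.046. In SSPC-2-like cells 2 were higher (Ier2, 74.4 and 142 CPM, and Nr4a1, 75.2 and 117 CPM) and 1 lower (Atf3, 212 and 126 CPM), the list summed to 10556 and 11472 CPM, and the median was 0.16, beside 13.8% and a median of 0.079 over all genes. In endothelial-like cells 7 of the 11 were higher, with sums of 7713 and 11494 CPM and a median of 0.66, beside 16.0% and a median of -0.022 over all genes. Tendon-like cells had 2 higher and 0 lower, beside 19.9% of all genes, and fibroblast-like cells 0 and 0, beside 10.2%. Lining-like cells had 3 higher and 4 lower, beside 21.7%. Pericyte-like cells had 1 and 0, beside 8.63%, and blood-like cells 1 and 0, beside 15.8%. The part of these genes in the Ccn1 and Ccn2 ratios was not tested.

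Genes with the most similar distribution to each member were taken as the 3 with the highest Pearson r of log2(CPM + 1) over the 10 named types of the control. These points share libraries, depth and cell assignment, so the values are a description. For Piezo2 they were Sars (r = 0.92), Npr3, the natriuretic peptide clearance receptor (0.92), and Prelp, a matrix proteoglycan (0.91). Over the 8 types shared by the libraries, r in the Piezo1 fl/fl library was 0.17 for Sars, 0.78 for Npr3 and 0.96 for Prelp. For Ccn1 they were Lrig3 (0.94), Tgfb3 (0.94) and Tceal3 (0.90), with 0.87, 0.93 and 0.94 in the Piezo1 fl/fl library. For Wwtr1 they were Tshz2 (0.95), Ppp1r13l (0.94) and Zfp507 (0.93), with 0.95, 0.70 and 0.17. For Ccn2 the closest were Garem1 (0.89), Tmem185a (0.89) and Clpp (0.88), with 0.72, 0.92 and 0.54. For Piezo1 they were Shb, Mcfd2 and Plpp6, and for Trpv4 Dram2, Cnot6l and 2510039O18Rik, between 0.90 and 0.97 in the control. For Yap1 they were Nhs, Rbfox2 and Osbpl5, for Tead1 Zeb1, Syde1 and Hmgn3, and for Amotl2 Klhl12, Hdgfl3 and Pknox2, between 0.94 and 0.97. The r of Klhl12 with Amotl2 was -0.031 in the Piezo1 fl/fl library, so the nearest gene in 1 library need not be near in the other.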

How the data were processed

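Periosteal cells were captured on the BD Rhapsody whole-transcriptome system. The deposited files hold UMI counts per gene and cell, as whole numbers and not normalized. The submitters' processing notes name fastp, UMI-tools, STAR and Seurat 4.0.3, and the genome build and annotation of the counts are not given in the sources used here. Members and lists were chosen with earlier results of these data known. Each library was treated alone. Barcodes passed if they had 1000 to 5000 genes and a mitochondrial share below 25%, and 46 and 67 barcodes called doublets by Scrublet (scanpy 1.11.5, expected rate 0.05) were dropped. Seurat 5.3.0 (R 4.3.3) clustered them on up to 2000 variable features without the members and lists, 20 principal components and Louvain resolution 0.4. A class was open to a cluster with at least 3 of its markers detected (in 10% of cells, 2-fold over all other cells) and no class ahead among its 10 leading genes, and the highest mean log2 fold decided. These thresholds were set after the clusters were seen. UMIs were summed per type. Levels have exact Poisson, ratios exact conditional and shares exact binomial 95% intervals (scipy 1.17.1). The ratio intervals were run on simulated independent Poisson counts, which leave out the gathering of UMIs in few cells. A count of 0 was read against 3 counts, and 0.5 UMIs were added when counting genes past 1.5-fold. For equal depth, cells were thinned to 2500 UMIs. Named genes are all members, list genes past 1.5-fold in SSPC-1-like or SSPC-2-like cells, and the 3 nearest genes (at least 200 UMIs) of members with at least 100 UMIs. List genes were also named at the type where they were highest, and Ctu2, after their values were seen. The 13 alternatives planned and 2 added later are given with their effects among the limits.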

Additional observations from a re-analysis of the deposited data

How the results depend on the processing

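No paired analysis was possible because there is 1 library per genotype, and leaving out a replicate was not possible either. Of 39 member ratios between the libraries whose interval left out 0, 28 kept their direction under every alternative that gave a value. At Louvain resolution 0.2 neither SSPC-1-like cells of the Piezo1 fl/fl library nor SSPC-2-like cells of the control formed a class of their own, so their ratios have no value there. The causes of the shifts were not tested. The Ccn2 log2 ratio in SSPC-2-like cells (1.13) was 1.24 at resolution 0.8, 0.53 with the libraries clustered together, 0.48 with cells placed by their own markers, 1.51 with 500 to 6000 genes, 0.54 under 10% mitochondrial UMIs, 1.33 thinned, 1.42 as a mean over cells, 1.05 centred on all genes, and 1.24 with mature osteoblast-like cells pooled in, an alternative chosen after seeing the data. That in SSPC-1-like cells (0.42) was 0.25 clustered together, -0.10 by own markers, 0.39 with 500 to 6000 genes, 0.34 under 10% mitochondrial UMIs, 0.38 thinned and 0.47 centred. The Piezo2 ratio in SSPC-1-like cells (0.75) was 1.01 as a mean over cells, and the Piezo1 ratio in stromal cells (-1.22) was -0.54 thinned. The control log2 ratio of SSPC-1-like to SSPC-2-like cells for Ccn2 (2.96) was 3.13 clustered together, 3.12 thinned, 3.10 as a mean over cells and 3.07 pooled. Pairs of member and type past 1.5-fold numbered 15 of 54, and 7 at a fold of 2. Without the barcodes shared by the libraries, also added after seeing the data, the pairs were again 15. Of the single-gene ratios under the alternatives, 1056 stayed within their counting interval, 121 moved out of it without a change of sign and 19 reversed. The 19 that reversed follow. Clustered together, these were Ccn1 in tendon-like (0.27), SSPC-2-like (-0.094) and fibroblast-like cells (0.0037), and Piezo2 (-0.096) and Igfbp3 (-1.53) in SSPC-2-like cells. By own markers, they were Ccn1 in tendon-like (0.096) and fibroblast-like cells (0.091), Piezo2 in SSPC-2-like (-0.070) and fibroblast-like cells (-0.053), Ccn2 in lining-like (0.022) and Igfbp3 in SSPC-2-like cells (-1.24). Under 10% mitochondrial UMIs, they were Piezo2 (-0.43) and Igfbp3 (-1.25) in SSPC-2-like and Ccn2 in pericyte-like cells (1.05). At resolution 0.2 they were Ccn1 in tendon-like (0.0072) and fibroblast-like cells (0.038), and at 0.8 Ccn2 in tendon-like cells (-0.26). With doublets kept it was Wwtr1 in blood-like cells (0.020), and thinned, Amotl2 in SSPC-1-like cells (0.0019).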

Other observations

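Within the fibroblast-like cells, Piezo2 separated clusters. In the Piezo1 fl/fl library the clusters led by Ccl11 and Hmcn2, by Slurp1 and Sema3e and by Cfd and Adipoq had 62.8, 74.8 and 56.8 CPM of Piezo2, whereas those led by Pi16 and Dact2 and by Fmo2 and Hhip had 5.35 and 10.0 CPM. The 2 fibroblast-like clusters of the control, led by Cytl1 and by Sfrp1, had 38.4 and 35.9 CPM. Amotl2 in the same 5 clusters of the Piezo1 fl/fl library ran from 57.5 CPM (Slurp1 and Sema3e) to 177 CPM (Pi16 and Dact2), and in the 2 control clusters it was at 176 and 174 CPM. These clusters were drawn separately in each library, so they are given as values only.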
